A study of Mus musculus with 4 samples.

Results

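The genes described here are 34 genes of the endoplasmic reticulum (ER) chaperone and unfolded protein response group, out of 31017 gene symbols in the deposited tables. They were chosen by name, with earlier results of these data known. All 34 were found. They are 10 chaperones and co-chaperones (Hspa5, Hsp90b1, Hyou1, Dnajb9, Dnajb11, Dnajc3, Dnajc10, Sdf2l1, Manf, Creld2), the lectin chaperones Calr and Canx, 5 protein disulfide isomerases (Pdia3, Pdia4, Pdia6, P4hb, Txndc5), 9 genes of ER-associated degradation (Derl1, Derl2, Derl3, Herpud1, Sel1l, Syvn1, Edem1, Edem2, Os9), the stress sensors Atf6 and Ern1 with the transcription factor Xbp1, 4 genes of translocation, glycosylation and export (Ostc, Ssr1, Sec61b, Sec24d) and Wfs1, which encodes the ER membrane protein wolframin.

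Their levels were read in single-cell 3′ libraries of mouse mammary epithelial cells from the fourth glands. All 4 mice were of the FVB strain, carried floxed Tfap2c alleles on both chromosomes together with Krt5-CreERT2, and were taken at week 9. The 2 corn oil-labelled mice received the vehicle, and the 2 4OHT-labelled mice received 4-hydroxytamoxifen, which activates the recombinase in cells that use the Krt5 promoter. Injections began at week 4, and the labels state their length in different ways, as 5 days or as 1 week. Each mouse gave 1 library, and the library is the replicate (n = 2 per group).

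Proteins that enter the secretory pathway fold inside the ER with the help of chaperones, glycan-binding lectins and disulfide isomerases, and proteins that fail to fold are exported and degraded. When unfolded proteins build up, membrane sensors, encoded by Ern1, Atf6 and Eif2ak3, start the unfolded protein response. Ern1 splices the Xbp1 transcript and Atf6 is cut to release a transcription factor, and both products raise chaperone and degradation genes, while Eif2ak3 (PERK) acts through the translation factor eIF2 and Atf4. Hspa5, also called BiP, is the main ER chaperone and is widely used as the readout of this response. Mammary epithelium has an outer layer of contractile basal cells and an inner luminal layer of progenitors that make milk proteins and of cells that sense hormones.

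The factors released by this response bind ER stress response elements, so the promoter windows of the members were searched for 3 sets of letters on both strands. These were CCAAT and, after 9 bases of any kind, CCACG (the element), ATTGG and, after 1 base, CCACG (its second form), and TGACGTGG (the UPR element). Windows ran from 250 bases before to 50 bases after each RefSeq start (GRCm38.p6), and 29 of the 34 members had a window. The first set of letters was in a window of 9 of these 29 genes, 31% of them, and in 0.137% of the 27025 genes in the table. The 9 genes were Hspa5, Hsp90b1, Calr, Canx, Pdia6, Creld2, Derl3, Dnajc3 and Syvn1. The second form was in the windows of Herpud1 and Dnajb11 and in 0.0444% of all genes, and the UPR element was in those of Sec24d and Txndc5 and in 0.714% of all genes. A match is a description of the letters and not a bound site. The 250 bases upstream of the RefSeq start are shown, 5′ to 3′ on the gene's strand, for 5 genes that the results below turn on, with the matched letters in capitals.
Hspa5, chr2:34771840-34772089 (+): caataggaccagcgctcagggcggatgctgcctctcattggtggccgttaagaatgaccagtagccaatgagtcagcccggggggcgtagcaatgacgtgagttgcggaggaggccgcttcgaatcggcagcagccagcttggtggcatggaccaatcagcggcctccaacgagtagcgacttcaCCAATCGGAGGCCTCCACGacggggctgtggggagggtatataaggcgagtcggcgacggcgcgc
Hsp90b1, chr10:86705445-86705694 (-): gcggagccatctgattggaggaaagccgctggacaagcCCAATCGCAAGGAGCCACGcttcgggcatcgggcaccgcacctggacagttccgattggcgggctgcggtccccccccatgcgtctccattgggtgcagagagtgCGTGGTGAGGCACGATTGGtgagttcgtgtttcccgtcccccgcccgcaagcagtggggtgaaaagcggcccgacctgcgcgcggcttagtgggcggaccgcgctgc
Creld2, chr15:88819396-88819645 (+): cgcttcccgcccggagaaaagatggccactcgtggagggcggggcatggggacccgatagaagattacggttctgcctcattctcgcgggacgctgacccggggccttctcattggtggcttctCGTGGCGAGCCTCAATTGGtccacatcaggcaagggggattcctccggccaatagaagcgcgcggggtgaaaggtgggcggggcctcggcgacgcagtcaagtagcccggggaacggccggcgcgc
Derl3, chr10:75893148-75893397 (+): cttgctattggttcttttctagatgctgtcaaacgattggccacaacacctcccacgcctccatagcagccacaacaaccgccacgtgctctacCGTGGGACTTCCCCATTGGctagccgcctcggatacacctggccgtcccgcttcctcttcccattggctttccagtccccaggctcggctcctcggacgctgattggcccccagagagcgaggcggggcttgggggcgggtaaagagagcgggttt
Herpud1, chr8:94386179-94386428 (+): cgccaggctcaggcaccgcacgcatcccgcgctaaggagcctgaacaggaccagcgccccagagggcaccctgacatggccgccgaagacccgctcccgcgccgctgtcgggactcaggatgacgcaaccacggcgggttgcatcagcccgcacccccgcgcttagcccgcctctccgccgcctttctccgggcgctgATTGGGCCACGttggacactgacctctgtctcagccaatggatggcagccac
The match began 65 bases before the start in Hspa5 and 52 bases before it in Herpud1. Hsp90b1 held the letters once on each strand, and Creld2 and Derl3 held them on the opposite strand of the gene.

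The matrices held 18223 cell barcodes and between 17351950 and 22017878 unique molecular identifiers (UMIs, 1 per counted molecule) per library, and between 18 and 36 barcodes were shared by any 2 libraries. Levels are given as CPM, the share of a gene among all UMIs of a class and library scaled to 1000000. In basal cells, Tfap2c, the targeted gene, stood at 388.7 and 285.4 CPM under the corn oil label and at 285.0 and 325.5 CPM under the 4OHT label. It was not clearly lower under 4OHT, and a 3′ count can still count a transcript that has lost an internal exon. Groups are therefore named by their labels throughout. Cells with at least 1000 UMIs were put into 3 classes by markers that are not members. Basal cells had at least 5 UMIs of Krt5, Krt14, Krt17 and Acta2 and more than 3 times as many as of Krt8, Krt18 and Krt19, and luminal cells had the reverse. Luminal cells were called hormone-sensing with at least 3 UMIs of Ly6d, Fxyd2 and Gpx3 that outnumbered those of Wfdc18, Csn3 and Ltf, and progenitors otherwise. The libraries held 1421 to 2178 basal, 1132 to 1770 luminal progenitor and 151 to 447 hormone-sensing cells, while 572 to 1358 cells met neither rule.

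The marker sums describe the classes and do not test them, because they include genes of the class rule. These are Krt5, Krt14, Krt17 and Acta2 among the basal markers and Wfdc18, Csn3 and Ltf among the progenitor markers. The luminal keratins are also part of the rule. The 8 basal markers summed to 12261 to 17740 CPM in basal cells and to at most 380 CPM in the luminal classes. Luminal progenitor markers reached 10368 to 12651 CPM in their class and at most 311 CPM in the other 2. Median basal cells held 3 to 4 UMIs of the luminal keratins against 42 to 50 of the basal markers. Near the limit of the basal rule, 138 to 268 cells per library had 3 to 4 times as many basal as luminal marker UMIs, with 14491 to 17331 CPM of the 34 genes summed. Just outside it, 145 to 309 cells had 2 to 3 times as many, with 14130 to 17684 CPM. Hormone-sensing cells of 4OHT-labelled replicate 1 held 1346 CPM of fibroblast and 121 CPM of leukocyte markers, against at most 243 and 5.88 CPM in the other libraries. Plasma cells make much of this machinery, and their markers stayed at or below 8.65 CPM in the 3 classes and reached 162 CPM in cells outside them. Immediate-early genes summed to 2149.5 to 4025 CPM in basal cells, 2415 to 4420 CPM in progenitors and 1619 to 2579 CPM in hormone-sensing cells, and their part in the class differences was not tested.

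Summed over the 34 genes, basal cells held the highest levels in each library and hormone-sensing cells the lowest. Basal cells had 15116 and 12495 CPM under corn oil and 12984 and 10734 CPM under 4OHT, which is 1.07% to 1.51% of all their UMIs. Luminal progenitors had 6997, 6332, 7678 and 6867 CPM in the same order, and hormone-sensing cells had 3080, 2319, 2912 and 2599 CPM. The 3 ranges did not overlap. Cells outside the classes had 10360 to 15806 CPM, overlapping the range of basal cells. Hspa5 alone made up 20.5% to 26.8% of the member UMIs in basal cells, 22.0% to 36.6% in progenitors and 10.5% to 15.6% in hormone-sensing cells. Of the 34 genes, 28 were highest in basal cells in all 4 libraries and 22 were lowest in hormone-sensing cells in all 4. These orders use CPM without scaling factors. The share of all genes with the same orders was not counted, so these counts have no background beside them. Dnajc10 was the 1 member with its highest level in another class in every library, in hormone-sensing cells. Edem2, Os9, Xbp1, Ern1 and Sec61b had no class that was highest in all 4 libraries. Ern1 was lowest in basal cells in every library.

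**Figure D1:**
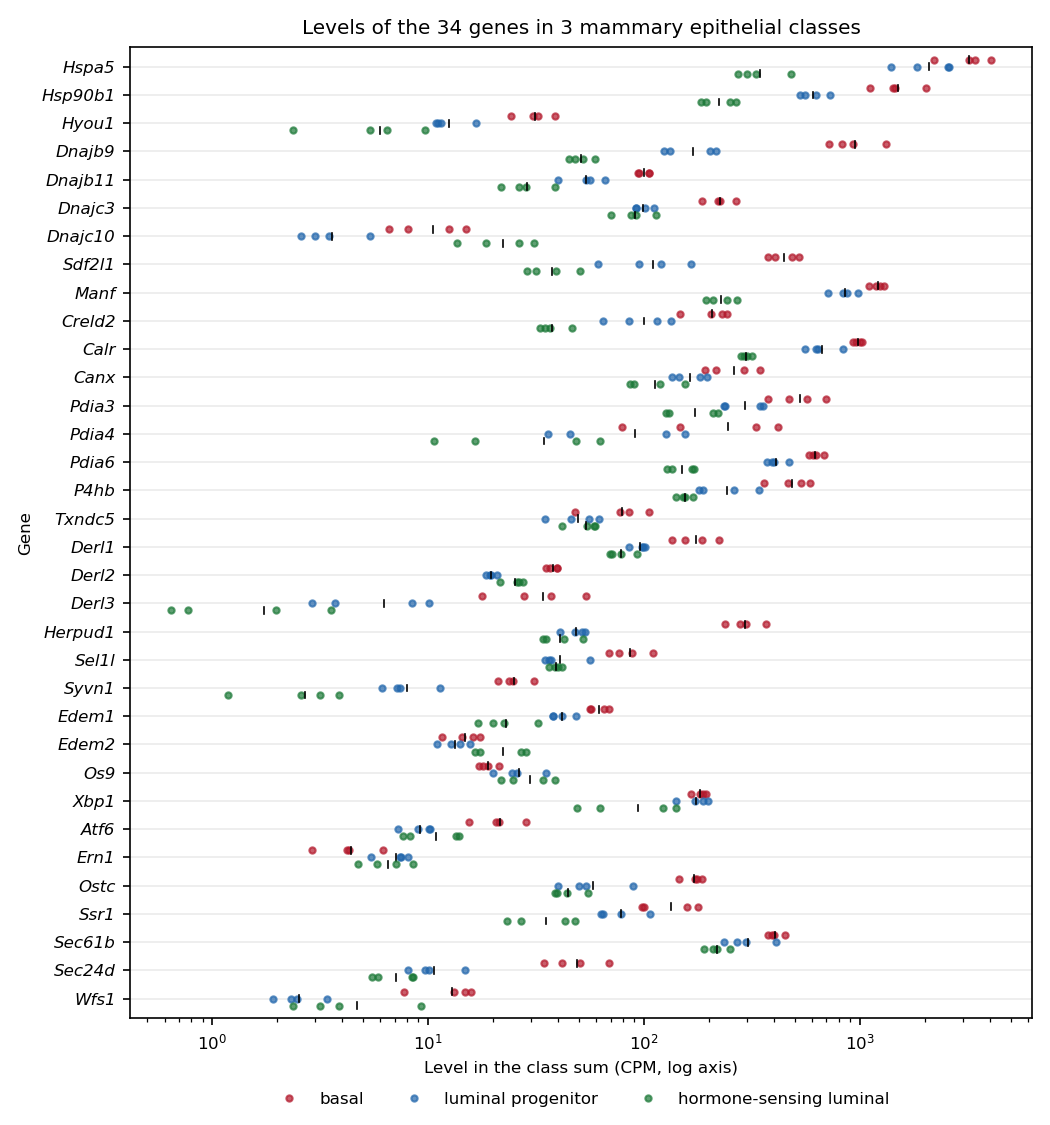
Levels of the 34 genes (CPM, log axis) in 3 mammary epithelial classes. Each point is the summed UMIs of 1 library in a class and each tick is the mean of 4 libraries. Most genes step down from basal (red) through luminal progenitor (blue) to hormone-sensing cells (green), and some, such as Dnajc10, do not.

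Between basal cells and luminal progenitors, the largest differences were those of Herpud1 and Dnajb9, and Hspa5 did not pass the test. Herpud1, an ER membrane adaptor of degradation, was 5.00-fold higher in basal cells, and the Hspa5 co-chaperone Dnajb9 was 4.71-fold higher. Of the 34 genes, 25 were higher and 2 lower in basal cells (edgeR quasi-likelihood test on class sums with library as a block, Benjamini-Hochberg adjusted p under 0.05). Over all 11135 genes tested, 29.5% were higher and 26.6% lower. The median log2 difference was 0.72 over the members and 0.04 over all genes. All 34 members passed the filter on low counts.

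Among the chaperones, 8 of 10 were higher in basal cells. Dnajb9 stood at 931, 723, 1319 and 825 CPM in basal cells (corn oil-labelled 1 and 2, then 4OHT-labelled 1 and 2) and at 132, 202, 215 and 124 CPM in progenitors, a log2 difference of 2.23 ± 0.14 (SE; edgeR adjusted p = 1.19e-09). The lowest basal value was more than 3 times the highest progenitor value. Sdf2l1 stood at 403, 485, 375 and 524 CPM in basal cells and at 61.1, 120.5, 94.99 and 165 CPM in progenitors. Its values did not overlap either, and the log2 difference was 1.82 ± 0.15. Hsp90b1 (GRP94), the ER member of the HSP90 family, stood at 2028, 1426, 1456 and 1116 CPM against 530, 556, 730 and 625 CPM, a log2 difference of 1.01 ± 0.15. Dnajc10, a reductase of the ER, differed by 1.25 ± 0.22, Hyou1, the exchange factor of Hspa5, by 1.07 ± 0.19, and Dnajc3, Creld2 and Dnajb11 by 0.91, 0.80 and 0.64 on the log2 scale.

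Hspa5 itself did not pass the test between these classes. It stood at 4058, 3201, 3406 and 2200 CPM in basal cells and at 2562, 1391, 2602 and 1850 CPM in progenitors. Each library was higher in basal cells, but the ranges of the classes overlapped. The log2 difference was 0.34 ± 0.15 (edgeR adjusted p = 0.0662). Manf, a secreted partner of Hspa5, was at 0.25 ± 0.11 and did not pass either.

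The disulfide isomerases, which form and rearrange disulfide bonds, were all 5 higher in basal cells, from Pdia6 at 0.34 to Pdia4 at 1.14 on the log2 scale. Of the lectin chaperones, which hold glycoproteins during folding, Canx passed at 0.37 ± 0.11 and Calr did not at 0.30 ± 0.13. In ER-associated degradation, 6 of 9 genes were higher and Os9 was lower. Herpud1 stood at 367, 298, 280 and 236 CPM in basal cells and at 41.0, 53.2, 51.5 and 47.8 CPM in progenitors, a log2 difference of 2.32 ± 0.14. Derl3, a channel component of the derlin family that is typical of secretory cells, stood at 27.7, 54.0, 17.7 and 37.2 CPM against 2.89, 10.1, 3.69 and 8.37 CPM, a log2 difference of 2.23 ± 0.19. Neither gene overlapped between the classes. The other derlins were closer, with Derl2 at 0.68 and Derl1 at 0.58. The ubiquitin ligase Syvn1 (HRD1) differed by 1.39 ± 0.18 and its partner Sel1l by 0.81 ± 0.14. Os9, a lectin that delivers glycoproteins to that ligase, was at -0.73 ± 0.18, on the lower side in 3 of 4 libraries.

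The sensors went different ways. Atf6 was higher in basal cells by 0.95 ± 0.16, from 28.4, 20.7, 21.4 and 15.5 CPM against 10.1, 10.2, 8.93 and 7.25 CPM. Ern1 was lower by 1.98-fold, from 6.18, 4.28, 4.21 and 2.88 CPM against 7.43, 5.45, 7.499 and 8.05 CPM (log2 difference -0.99 ± 0.24, edgeR adjusted p = 0.00237). Xbp1 stood at 189, 165, 193 and 181 CPM in basal cells and at 199, 173, 140 and 188 CPM in progenitors. Its ranges overlapped and its difference of -0.21 ± 0.20 did not pass (3′ counts do not tell spliced from unspliced Xbp1). In the last group, Sec24d, a cargo adaptor of export vesicles, differed by 1.92 ± 0.17, Ostc, a subunit of oligosaccharyltransferase, by 1.32 ± 0.16 and Ssr1 by 0.49 ± 0.13. Sec61b, a subunit of the translocon, did not pass at 0.18 ± 0.13. Wfs1 stood at 15.8, 13.2, 14.8 and 7.74 CPM in basal cells and at 1.90 to 3.38 CPM in progenitors, a log2 difference of 2.06 ± 0.28.

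**Figure D2:**
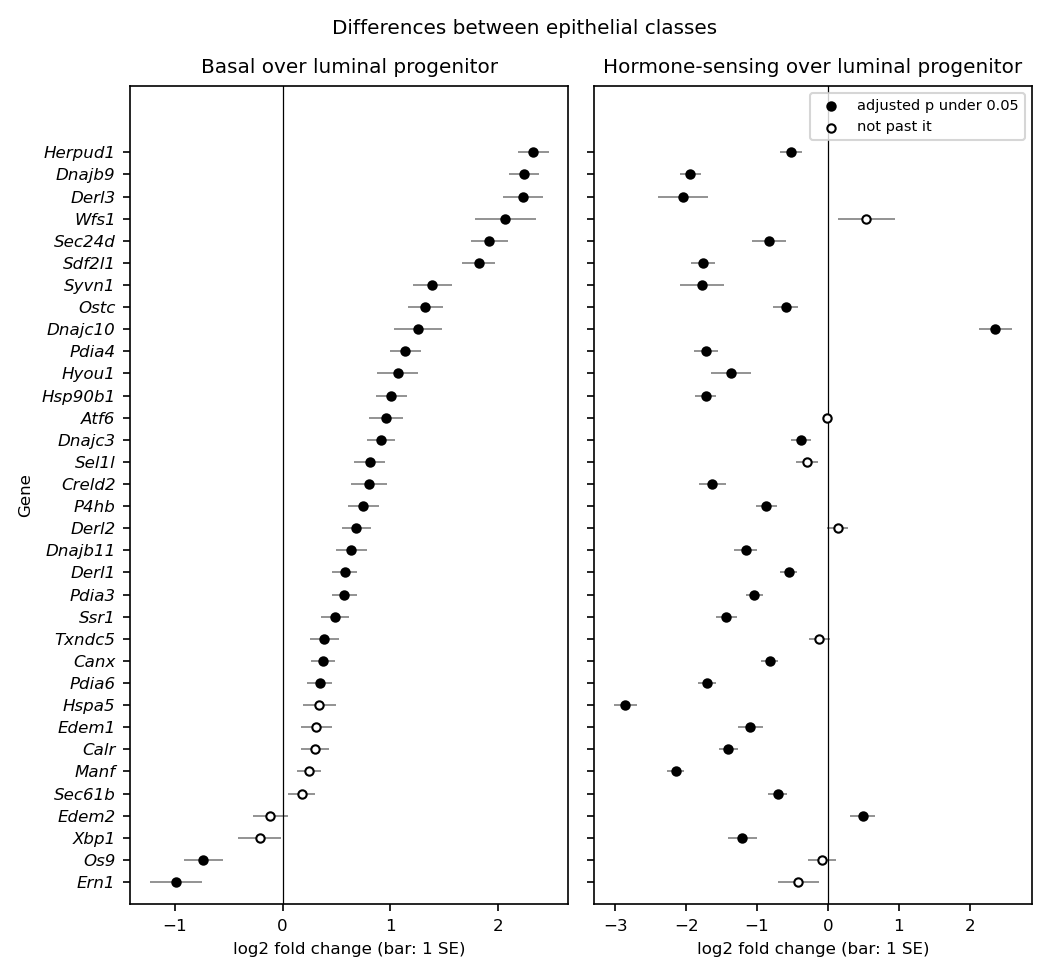
Log2 fold changes of the 34 genes between classes with 1 SE (edgeR), basal over luminal progenitor at left and hormone-sensing over luminal progenitor at right; filled points passed an adjusted p of 0.05. Herpud1, Dnajb9 and Derl3 lead at left while Hspa5 did not pass, and at right Hspa5 and Manf are the lowest and Dnajc10 is the highest (Atf6 at right has no SE).

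The gap between basal cells and progenitors depended on how strictly basal cells were taken. With more than 10 times as many basal as luminal marker UMIs, or the reverse, 15 members were higher and 2 lower, and the Hspa5 difference was -0.003. Basal cells between 3 and 10 times had 14089 to 16321 CPM of the 34 genes, and those over 10 times had 7574 to 13782 CPM. Scaling by library totals alone, in place of edgeR's TMM factors, moved the median of all genes from 0.04 to 0.31 and turned the split of all calls from 3281 higher and 2966 lower to 4421 higher and 1920 lower. On that scale 30 members were higher and 2 lower, Hspa5 passed at 0.62 (edgeR adjusted p = 0.000386) and the Xbp1 difference turned to 0.05.

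Genes around the members were read from lists of the same pathways, beside 29.5% of all genes higher and 26.6% lower in basal cells than in progenitors. Of 19 other folding enzymes, 11 were higher and 1 lower in basal cells, led by the collagen chaperone Serpinh1 at 3.13 and the isomerase Fkbp7 at 3.26. Of 21 other genes of the translocon, signal peptidase and oligosaccharyltransferase, 8 were higher and 3 lower. Of 14 other degradation genes, 5 were higher and none lower. Of 16 outputs of PERK and Atf4, 11 were higher and 2 lower, with Chac1 at 2.49 and Ddit4 at 2.08, and Nupr1 at -1.99. Of 12 cytosolic and mitochondrial heat shock genes, 3 were higher and 3 lower. Of 19 genes of ER export and Golgi transport, 8 were higher and 2 lower, with the retrieval receptor Kdelr3 at 2.04.

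Hormone-sensing cells had low levels of most of these genes. Against luminal progenitors, 25 members were lower and 2 higher, where 24.6% of 11135 genes were lower and 21.9% higher (edgeR). The median log2 difference was -0.96 over the members and -0.02 over all genes. Hspa5 stood at 480, 299, 330 and 274 CPM, 7.27-fold below progenitors, and no hormone-sensing value reached the lowest progenitor value of 1391 CPM (log2 difference -2.86 ± 0.16, edgeR adjusted p = 2.04e-09). Manf was 4.43-fold lower at 243, 194, 209 and 269 CPM against 713 to 981 CPM. These 2 genes had the largest falls. Dnajb9 was at -1.94 ± 0.15, Sdf2l1 at -1.77 ± 0.17 and Hsp90b1 and Pdia4 both at -1.72. Derl3 (1 to 6 UMIs per library in hormone-sensing cells), Syvn1 and Wfs1 passed the filter on low counts only through the other classes. Of the 31 members that passed it in each class alone, 23 were lower and 2 higher.

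All 10 chaperones passed, 9 of them lower. Both lectin chaperones, 4 of 5 isomerases and all 4 genes of translocation, glycosylation and export were lower as well. In degradation 5 of 9 were lower, and Derl2 at 0.14, Sel1l at -0.29 and Os9 at -0.09 did not pass. Xbp1 was lower at -1.21 ± 0.21, while Ern1 at -0.42 ± 0.29 and Atf6 at -0.02 did not pass. With library totals alone the median of all genes moved to 0.23, and 20 members were lower and 2 higher, with Atf6 at 0.23, and 63.9% of all calls were higher against 47.1%.

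Dnajc10 and Edem2 were the 2 members higher in hormone-sensing cells. Dnajc10 stood at 26.2, 13.5, 30.9 and 18.5 CPM there, on 23 to 48 UMIs per library, and at 5.37, 3.47, 2.98 and 2.58 CPM in progenitors, a 5.15-fold difference without overlap (log2 2.36 ± 0.24, edgeR adjusted p = 7.02e-07). Basal cells lay between, at 6.58 to 15.0 CPM. Edem2, which trims mannose from glycoproteins, differed by 0.49 ± 0.18 and its call was lost in 7 other settings, among them the loss of any 1 library but corn oil-labelled replicate 2. Outside the members, 13 of 16 PERK and Atf4 outputs were lower and Phgdh was higher at 1.62. Chac1 and Slc7a11 of that list did not pass the filter on low counts in hormone-sensing cells alone. The list was not recounted without them. Of translocon, signal peptidase and glycosylation genes, 17 of 21 were lower and Spcs1 was higher. Of export genes, 12 of 19 were lower and Kdelr1 was higher. Over all genes, 24.6% were lower and 21.9% higher.

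Basal and hormone-sensing cells were the farthest apart. Of the 34 genes, 30 were higher in basal cells and 3 lower, against 32.4% and 27.3% of 11135 genes (edgeR). The median was 1.66 over the members and 0.08 over all genes. Dnajb9 was at 4.18 ± 0.16 (18.1-fold), Sdf2l1 at 3.59 ± 0.18, Hspa5 at 3.20 ± 0.16 (9.20-fold), Pdia4 at 2.86, Herpud1 at 2.84 and Sec24d at 2.75. Derl3 at 4.27, Syvn1 at 3.17 and Wfs1 at 1.52 are counted among the 30 but passed the filter on low counts only through the classes where they are higher, and 27 of the other 31 members were higher. The 3 lower genes were Dnajc10 at -1.11 ± 0.21, Os9 at -0.65 ± 0.20 and Edem2 at -0.60 ± 0.18. After thinning every cell to 2000 UMIs only 1 of these 3 was called lower. Ern1 did not pass at -0.57 ± 0.31. These sums share their libraries and hormone-sensing cells with the comparison against progenitors.

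Within a class the members were spread unevenly over cells. Each cell with at least 2000 UMIs was thinned to 2000 at random, so that depth was equal. Between 34 and 379 basal cells, 34 and 140 progenitors and 0 and 11 hormone-sensing cells per library were too shallow and left out. The median basal cell then held 9 to 13 member UMIs, close to the 9 to 10 of progenitors, while hormone-sensing cells held 3 to 5. The upper tail differed. The 90th percentile was 57 to 74 UMIs in basal cells, 27.3 to 35 in progenitors and 7 to 11 in hormone-sensing cells. The variance was 26.6 to 43.5 times the mean in basal cells, 10.8 to 14.9 times in progenitors and 3.20 to 6.97 times in hormone-sensing cells.

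Cells with at least 40 member UMIs, 2% of the thinned cell, made up 26.3%, 20.2%, 21.0% and 17.5% of basal cells in the 4 libraries. In progenitors the shares were 6.09%, 3.92%, 7.91% and 4.70%. In hormone-sensing cells there was 1 such cell in each library, of 151 to 436. The 95% exact binomial intervals of basal cells and progenitors did not meet in any library (15.7% to 19.3% against 3.61% to 5.99% in the library where basal cells were lowest); they cover counting error only.

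**Figure D3:**
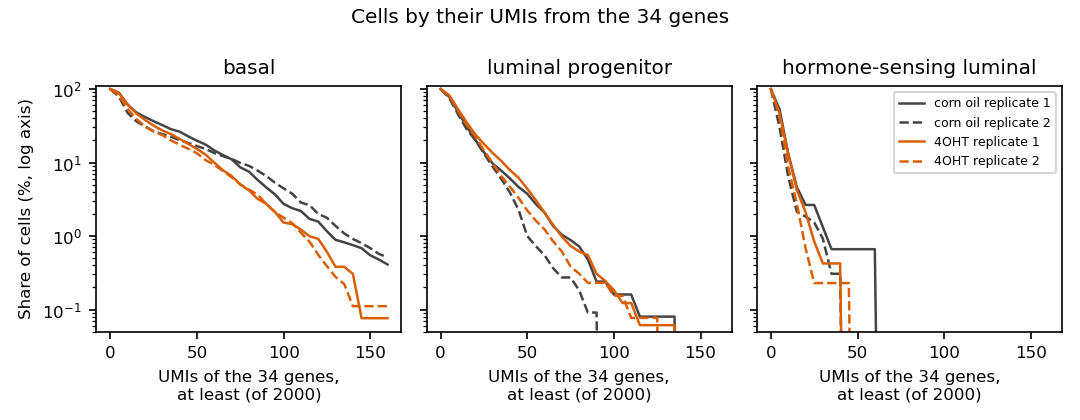
Share of cells (%, log axis) with at least a given number of UMIs from the 34 genes, each cell thinned to 2000 UMIs; lines are the 4 libraries. The basal lines run far to the right of those of progenitors and hormone-sensing cells, although the median basal cell held only 9 to 13 such UMIs.

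Hspa5 was used to ask how the other 33 genes vary inside a class. Of the thinned basal cells, 58.1%, 45.5%, 59.2% and 43.2% held 3 or more Hspa5 UMIs, and 16.6%, 25.7%, 14.7% and 23.9% held none. In progenitors 44.6%, 33.0%, 48.8% and 41.9% held 3 or more. In hormone-sensing cells, which have little Hspa5, 9.93%, 4.29%, 6.78% and 3.90% held 3 or more. The median depth before thinning was 4745.5 to 8258 UMIs there and 2827.5 to 5152.5 UMIs in basal cells. The groups of cells are defined by Hspa5, so Hspa5 is not tested between them.

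Cells with 3 or more Hspa5 UMIs had more of the other members in both classes, and the step was larger in basal cells. Basal cells without Hspa5 held on average 5.87, 4.87, 5.79 and 5.48 UMIs of the other 33 genes, and those with 3 or more held 29.8, 32.4, 24.9 and 29.4. Progenitors without Hspa5 held 5.13, 5.05, 5.32 and 5.08, and those with 3 or more held 11.97, 15.8, 14.3 and 14.8. Between these, basal cells with 1 to 2 Hspa5 UMIs held 7.42, 6.15, 7.33 and 8.36, and such progenitors held 6.46, 7.76, 6.59 and 7.38. The ranges of the 2 classes overlapped in cells with none and with 1 to 2 Hspa5 UMIs, and not in cells with 3 or more. Median UMIs before thinning were close between these groups within a library (5329.5 against 5196.5 in basal cells of corn oil-labelled replicate 1). The median mitochondrial share was lower in cells with 3 or more Hspa5 UMIs than in cells with none in each library of both classes, at 1.71%, 1.96%, 1.43% and 2.03% against 2.29%, 2.26%, 1.49% and 2.22% in basal cells, and its part in the result was not tested. In progenitors it was 1.13%, 1.23%, 1.27% and 1.195% against 1.31%, 1.62%, 1.52% and 1.27%.

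The 2 groups of basal cells were summed per library and compared with library as a block. Of the 33 other members, 32 passed the filter on low counts, and 29 were higher and 1 lower in cells with 3 or more Hspa5 UMIs, against 18.2% and 18.4% of 6754 genes (edgeR). Ern1 was the member not tested. Sdf2l1 stood at 22.7, 25.6, 15.5 and 32.6 CPM in cells without Hspa5 and at 582, 958, 536 and 1072 CPM in cells with it, a 34.9-fold difference (log2 5.12 ± 0.17, edgeR adjusted p = 1.66e-14). Creld2, an isomerase-like chaperone partner, stood at 33.1, 17.8, 18.1 and 16.3 CPM against 294, 466, 180 and 462 CPM, a 19.2-fold difference. For Derl3, 2 UMIs in all were counted in basal cells without Hspa5 and 403 in those with it. The ratio of CPM was 82.8 (95% exact interval 22.8 to 686, counting error only). Derl3 is counted among the 29 but passed the filter on low counts only through the cells with Hspa5. Whether Wfs1, which has few UMIs, and other members passed it in the same way was not checked. The 29 were not recounted for members that pass the filter in both groups. No value of Sdf2l1, Creld2 or Derl3 overlapped between the groups.

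Manf differed by 3.47 ± 0.16, Pdia4 by 3.38 ± 0.17, Herpud1 by 3.35 ± 0.20, Wfs1 by 3.18 ± 0.49, and Hsp90b1 and Hyou1 both by 3.14. Xbp1 was 3.81-fold higher, from 80.6, 81.3, 77.7 and 66.3 CPM to 260.0, 260.4, 285 and 289 CPM, and Atf6 differed by 2.35 ± 0.30. Os9 at 0.41 ± 0.29 and Edem2 at 0.06 ± 0.31 did not pass. Dnajc10 was the single gene called lower, at -0.92 ± 0.36 (edgeR adjusted p = 0.0465), and it was on the lower side in 3 of 4 libraries. No member was called lower without corn oil-labelled replicate 1, without corn oil-labelled replicate 2 or without 4OHT-labelled replicate 1. The luminal keratins also differed between these basal cells, with Krt19 at 28.9, 21.2, 51.8 and 40.7 CPM without Hspa5 and at 128, 193, 92.9 and 165 CPM with it, and Krt5 at 347.7 to 493 CPM without it and 263.5 to 347.5 CPM with it; their part in the result was not tested.

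In luminal progenitors 25 of the other 33 members passed the filter. Of these, 21 were higher and none lower in cells with 3 or more Hspa5 UMIs, against 15.2% and 14.4% of 4584 genes (edgeR). A gene can pass the filter through the cells with 3 or more Hspa5 UMIs alone. The 21 were not recounted for members that pass it in both groups. Sdf2l1 was again first at 2.72 ± 0.16, from 22.3, 29.6, 20.4 and 50.4 CPM to 98.9, 227, 153.5 and 290.5 CPM. Pdia4 followed at 2.52 ± 0.16, Manf at 2.45 ± 0.09, Hyou1 at 2.13 ± 0.39, Creld2 4.01-fold, Hsp90b1 at 1.97, Pdia6 at 1.96 and Dnajc3 at 1.82. Xbp1 stood at 212, 136, 144 and 154 CPM without Hspa5 and at 156, 200, 148 and 186 CPM with it. These values overlapped and the difference of 0.17 ± 0.13 did not pass. Txndc5, Os9 and Derl2 did not pass either. With library totals alone the members' counts were the same, while 38.8% of all calls in progenitors were higher, against 51.4%.

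**Figure D4:**
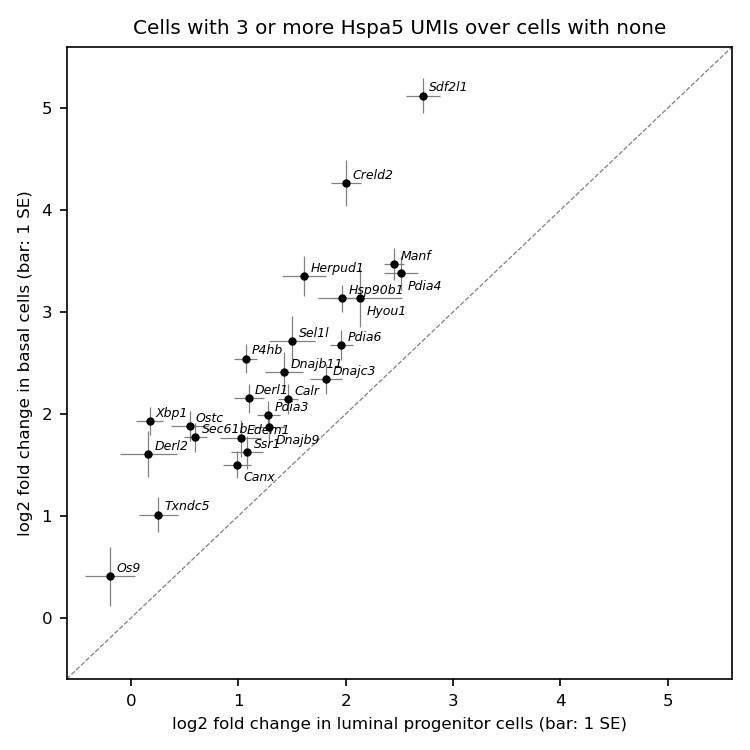
Log2 fold changes with 1 SE (edgeR) of the members tested in both classes, cells with 3 or more Hspa5 UMIs over cells with none, basal cells on the y axis and luminal progenitors on the x axis; the dashed line marks equal values. All points lie above the line, and Xbp1 is near 0 on the x axis and near 2 on the y axis.

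The difference of the 2 steps was tested as an interaction, which was added after the data were seen. It was larger in basal cells for 18 of 31 members tested and smaller for none, against 5.78% and 5.76% of 6700 genes (edgeR). Of the 25 members that passed the filter on low counts in each class alone, 17 were called. The others, Atf6, Derl3, Edem2, Sec24d, Syvn1 and Wfs1, passed it only through basal cells, and Wfs1 was the 1 called among them. Among the 17, Sdf2l1 differed by 2.35 ± 0.25, Creld2 by 2.22 ± 0.30, Xbp1 by 1.70 ± 0.19 and Herpud1 by 1.69 ± 0.33. Dnajb9, Canx, Dnajc3 and Ssr1 were at 0.46 to 0.52 and did not pass. The Hspa5-high cells of the 2 classes also differed in Hspa5 itself, with means of 12.1, 12.7, 10.1 and 8.90 UMIs in basal cells and 10.7, 7.29, 9.91 and 8.29 UMIs in progenitors, and the part of this in the difference was not tested. Without corn oil-labelled replicate 1 the test called 11 members, and without the library block it called 4.

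Lists of neighbouring genes were counted in the same cells, beside 18.2% of all genes higher in basal cells and 15.2% in progenitors. Of 16 PERK and Atf4 outputs, 13 were higher and 1 lower in Hspa5-high basal cells, and 12 were higher and 1 lower of 13 tested in progenitors. Ddit3, which encodes the stress factor CHOP, stood at 53.7, 53.5, 82.9 and 114 CPM in basal cells without Hspa5 and at 603, 963, 486 and 788 CPM in those with it (log2 3.34 ± 0.21), without overlap. Asns, asparagine synthetase, differed by 2.95 in basal cells and by 1.69 in progenitors. Of 21 other translocon, signal peptidase and oligosaccharyltransferase genes, 18 were higher in basal cells and 14 of 20 tested in progenitors. Of 19 export genes 14 were higher in basal cells, and 12 of 16 tested in progenitors. Ero1l, the oxidase that recharges the disulfide isomerases, stood at 268 to 538 CPM in basal cells without Hspa5 and at 1812 to 4069.9 CPM in those with it.

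Of the 12 genes on the heat shock list, none was higher and 11 were lower in Hspa5-high basal cells, and none was higher and 7 were lower in progenitors (edgeR), with Hspa1a at -1.25 ± 0.12 and -0.57 ± 0.10. Over all genes tested, 18.4% were lower in Hspa5-high basal cells and 14.4% in Hspa5-high progenitors. Among genes that are not members, with a mean of at least 20 CPM, large differences in basal cells were those of Angptl6 at 5.46, Aldh1l2 at 4.48, Acot2 at 3.68, Stc2 at 3.59, Mgarp at 3.47, Cyb5r1 at 3.42 and Ciart at 3.39. In progenitors the 8 largest were Mthfd2 at 2.17, Aldh18a1 at 1.96, Ero1l at 1.88, Trib3 at 1.82, Asns at 1.69, and Ppan, Hspa9 and Cyb5r1 at 1.68. Ero1l, Trib3 and Asns are on the lists above, while Hspa9, the mitochondrial HSP70, is not on the heat shock list. Aldh1l2 and Mthfd2 encode mitochondrial enzymes of folate metabolism.

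Between the treatment labels no member passed the test in any class. In basal cells 0 of 34 members and 0 of 10788 genes passed (edgeR, background 0%), 0 members and 465 genes (4.31%) had an unadjusted p under 0.05, and DESeq2 called 38 genes. The median log2 difference of 4OHT-labelled over corn oil-labelled libraries was -0.22 over the members and -0.02 over all genes, and 29 members were below 0. In 13 of 34 members both 4OHT-labelled values lay below both corn oil-labelled values, where 17.6% of genes did so, and in none did both lie above, where 13% did. The smallest p values were those of Sel1l, Hsp90b1, Dnajb9, Herpud1 and Txndc5, at log2 differences of -0.39 ± 0.22, -0.38 ± 0.24, 0.40 ± 0.25, -0.32 ± 0.21 and -0.43 ± 0.29. Sel1l stood at 110 and 88.1 CPM under corn oil and at 76.6 and 69.2 CPM under 4OHT. None of these 5 passed at 2 libraries per group (edgeR adjusted p = 0.999).

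In luminal progenitors 0 of 34 members and 0 of 10120 genes passed (edgeR, background 0%), 0 members and 166 genes (1.64%) had an unadjusted p under 0.05, and DESeq2 called 1 gene. The member median was 0.02. Both 4OHT-labelled values lay above both corn oil-labelled values in 3 members (Hsp90b1, Calr and Ern1; 7.33% of genes) and below them in 4 (Atf6, Dnajc10, Edem2 and Sec24d; 17.5% of genes). Hsp90b1 was at 0.41 ± 0.26, with 530 and 556 CPM under corn oil and 730 and 625 CPM under 4OHT, which did not overlap. In hormone-sensing cells 0 of the 31 members tested passed, and 1 of 7589 genes did (background 0.0132%; DESeq2 called 7 genes). Xbp1 had the smallest p there. It stood at 62.5 and 48.8 CPM under corn oil and at 123 and 141 CPM under 4OHT, a log2 difference of 1.22 ± 0.27 (edgeR adjusted p = 0.637), without overlap. It was the 1 member with an unadjusted p under 0.05, as were 240 genes (3.16%). Fibroblast and leukocyte markers here were at 1346 and 121 CPM in 4OHT-labelled replicate 1, and 238 and 1.97 CPM in 4OHT-labelled replicate 2. Their part in the Xbp1 difference was not tested. Derl3, Syvn1 and Wfs1 were too low to be tested there. Without overlap, 6 members were higher and 2 lower under 4OHT, against 17% and 13.5% of genes.

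The treatment difference was also compared between basal cells and progenitors. No gene passed (0 of 11434, background 0%, edgeR; 429 genes (3.75%) and 4 members at an unadjusted p under 0.05; DESeq2 called 1 gene). The 4 members were Hsp90b1 at -0.80 ± 0.21, Hspa5 at -0.68 ± 0.23, Pdia4 at -0.67 ± 0.24 and Sdf2l1 at -0.60 ± 0.25. Hspa5 was lower under 4OHT in basal cells at -0.34 ± 0.24 and not in progenitors at 0.25 ± 0.35, and neither value passed on its own. Without corn oil-labelled replicate 1 the Hspa5 difference was -1.05, and without corn oil-labelled replicate 2 that of Hsp90b1 was -0.99. Each of these fits has only 1 corn oil-labelled library.

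Pdia4 differed more between libraries of 1 group than between the groups. It stood at 419 and 147 CPM in basal cells under corn oil and at 331 and 79.1 CPM under 4OHT. The same order held in progenitors, with 127, 45.3, 156 and 36.1 CPM, and in hormone-sensing cells, with 62.5, 16.5, 48.3 and 10.6 CPM. The libraries numbered 1 were thus the higher ones in each class. Leaving out 4OHT-labelled replicate 1 gave a basal treatment difference for Pdia4 of -1.67, with 4OHT-labelled replicate 2 alone in its group. In all, 6 of 31 members (Canx, Derl1, Hspa5, Pdia3, Pdia4 and Ssr1) were higher in both libraries numbered 1 in all 3 classes, where 11.5% of 7279 genes were. None was lower in both in all 3 classes, where 4% of genes were, and the numbers are not stated to mark a shared day or litter.

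**Figure D5:**
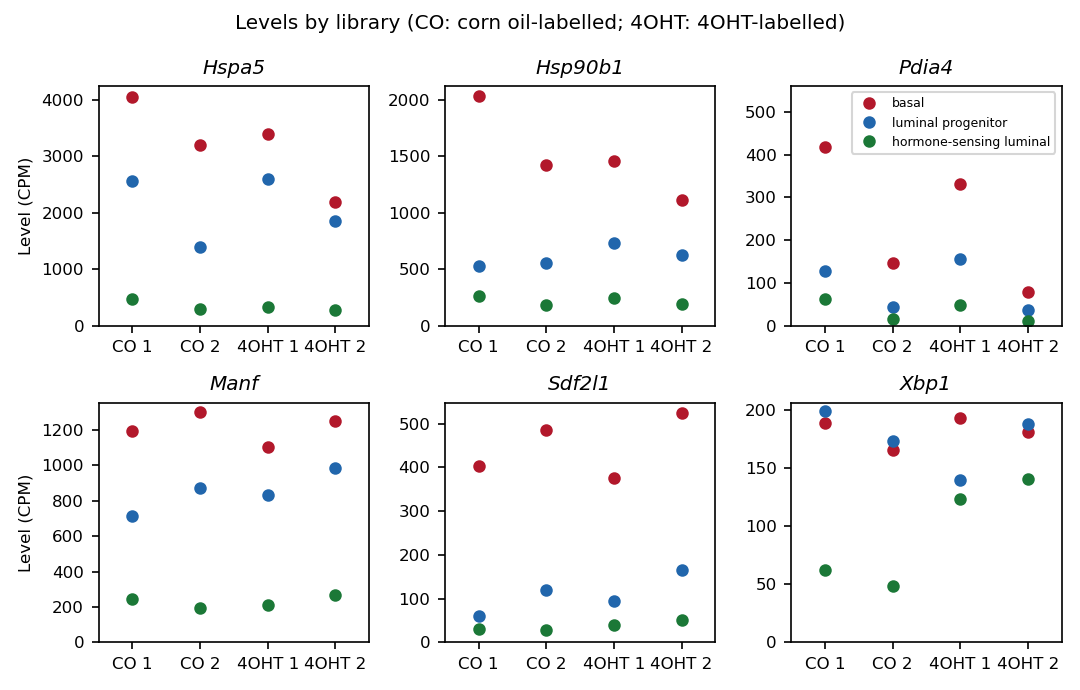
Levels (CPM) of 6 members in the 4 libraries, with basal cells in red, luminal progenitors in blue and hormone-sensing cells in green; each point is 1 library. Pdia4 is high in both libraries numbered 1 in each class, and Xbp1 in hormone-sensing cells is higher in both 4OHT-labelled libraries.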

How the data were processed

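Libraries of 4 mice were analysed from raw UMI counts per gene and cell barcode, deposited by the authors and made by Cell Ranger 3.0.1 against mm10 (GRCm38.91), per the labels' design text and the submitters' processing notes. Each deposited matrix was 1 mouse. The stated cell numbers, 3546 to 5545, equal the barcodes in the files. Strand and intron use are not given in the sources used here.

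Counts were summed per class and library after the marker rule in the text. CPM is a gene's count over all counts of the class and library. Tests used edgeR 4.0.16 (R 4.3.3): TMM factors, filterByExpr, quasi-likelihood F-test, two-sided, Benjamini-Hochberg adjustment over all genes, threshold 0.05. Standard errors were the unshrunken coefficient over the root of F, and none is given where p was above 0.95. Class comparisons pooled 12 sums and Hspa5 comparisons 8, with library as a block. The test of the difference of the Hspa5 steps between classes used 16 sums, with each class of each library as a block. DESeq2 1.42.0 was an alternative. The tests were checked on simulated data. Scrublet's automatic threshold marked 0.0554% to 0.213% of cells and was taken as failed, so doublets were kept. Leaving out the highest scores (0.8% per 1000 cells) was an alternative, as were other size factors, low-count filters, cell filters, stricter classes, thinning, and each library left out.

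Members and lists were chosen with earlier results of these data known. Named members were, per class comparison, up to 8 in each direction with the largest change past the threshold and on 1 side in all 4 libraries, and per treatment comparison the 5 smallest p values. In the Hspa5 comparisons up to 8 members and up to 8 other genes of at least 20 CPM were named, and up to 2 genes per direction from each other list. Further members were named by role, after their values were seen.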

Additional observations from a re-analysis of the deposited data

Results flagged for a closer look

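The difference between cells with 3 or more Hspa5 UMIs and cells with none differed between basal cells and luminal progenitors for 18 members, by a test of that difference itself (edgeR interaction, adjusted p under 0.05). The test was chosen after the data were seen. In each case the step was larger in basal cells. On the log2 scale the differences were 2.35 for Sdf2l1, 2.22 for Creld2 and 0.94 for Dnajb11 among the co-chaperones and their partners, 1.11 for Hsp90b1, 0.97 for Manf and 0.63 for Calr. Among the isomerases they were 1.43 for P4hb, 0.80 for Pdia4, 0.66 for Pdia3 and 0.66 for Pdia6. In degradation they were 1.69 for Herpud1, 1.39 for Derl2, 1.16 for Sel1l and 1.00 for Derl1. They were 1.28 for Ostc, 1.12 for Sec61b, 1.70 for Xbp1 and 3.44 for Wfs1, the last on 139 UMIs in basal cells and 16 in progenitors, where it did not pass the filter on low counts. With stricter classes 12 members were called.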

How the results depend on the processing

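Of 1438 values of single members under other settings, 1384 kept their direction and side of the threshold, 8 gained and 18 lost the call, and 28 changed sign. With 2 mice per group the treatment tests are limited by the number of libraries, and genes such as Ern1, Wfs1 and Derl3 by few UMIs. The causes of the changes below were not tested.

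Treatment calls over all genes changed with the settings. A fit with 1 library left out has only 1 library in 1 of the treatment groups. In basal cells (0 calls) they were 38 with DESeq2, 93 without a filter, 17 to 127 with 1 library left out, and 167 with the replicate number as a block. In progenitors (0) they were 1 with DESeq2, 39 without a filter, 39 to 64 with 1 library left out, 1 with stricter classes, and 9 with the block. In hormone-sensing cells (1) they were 7 with DESeq2, 59 without a filter, 0 at a mean of at least 20 CPM, 4 to 80 with 1 library left out, and 3 with the block. Same-numbered libraries deviated together (correlations 0.559, 0.317 and 0.220 in basal, progenitor and hormone-sensing cells), but with 2 pairs and no label for the number they are not taken as paired. For the treatment difference between basal cells and progenitors (0), the calls were 1 with DESeq2, 55 without a filter and 0 to 64 with 1 library left out. Members lower by treatment in basal cells were 0 to 1 with 1 library left out, members higher in hormone-sensing cells 1 without a filter, and members lower in the treatment difference 2 without a filter and 0 to 1 with 1 library left out.

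At a mean of at least 20 CPM the class comparisons called 2642 genes (basal against progenitor, of 6247), 2488 (hormone-sensing against progenitor, of 5168) and 2936 (basal against hormone-sensing, of 6654), since fewer genes were tested. Members lower in basal cells were then 1 against progenitors and 1 against hormone-sensing cells, the latter also 1 after thinning to 2000 UMIs, and members higher in hormone-sensing cells were 0. That last count, 2 in the report, was 1 with DESeq2, without a filter, after thinning, without the library block, and 1 to 2 with 1 library left out. Stricter classes left 15 members higher in basal cells than in progenitors.

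For cells with and without Hspa5, basal calls (2467) were 1497 with DESeq2, 1481 with stricter classes and 1413 without the library block. Progenitor calls (1359) were 529 with DESeq2, 221 without the block and 795 to 1269 with 1 library left out, lowest without 4OHT-labelled replicate 1. Calls for their difference (773) were 419 with DESeq2, 386 with stricter classes, 50 without the block and 401 to 572 with 1 library left out. Members lower in basal cells were 0 with DESeq2, without a filter, after thinning to 4000 UMIs, with stricter classes and without the block, and 0 to 1 with 1 library left out. In progenitors 1 was lower after thinning to 4000 UMIs. Members with a larger step in basal cells were 4 without the block and 11 to 16 with 1 library left out.

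The log2 differences that changed sign were small or rested on few UMIs. With stricter classes they were -0.085 for Xbp1 by treatment in basal cells, 0.0097 for Xbp1 and -0.18 for Derl3 by treatment in progenitors, -0.0029 for Hspa5 between basal cells and progenitors, and -0.065 for the Xbp1 treatment difference. With library totals alone they were -0.11 for Derl3 by treatment in progenitors, 0.011 for Atf6 by treatment in hormone-sensing cells, 0.052 for Xbp1 between basal cells and progenitors, and 0.23 for Atf6 between hormone-sensing cells and progenitors. With 1 library left out, treatment differences ran from -1.27 to 0.15 for Derl3 in basal cells, and in progenitors from -0.15 to 0.81 for Hspa5, from -0.38 to 0.17 for Xbp1, from -0.74 to 1.13 for Derl3 and from -0.30 to 0.65 for Wfs1. They ran from -0.36 to 0.36 for Atf6 in hormone-sensing cells. The treatment difference between basal cells and progenitors ran from -0.0094 to 0.41 for Xbp1, from -0.29 to 0.0068 for Atf6 and from -1.41 to 0.24 for Wfs1. Atf6 ran from -0.14 to 0.10 between hormone-sensing cells and progenitors, and Derl3 from -0.64 to 5.57 in the difference of the Hspa5 steps. After thinning to 2000 UMIs they were -0.54 for Dnajb11 by treatment in hormone-sensing cells and 0.18 for the Atf6 treatment difference. Atf6 by treatment in hormone-sensing cells was 0.14 without the highest Scrublet scores and 1.467e-05 with the replicate block.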

Other observations

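Genes outside the lists of the report that were lower in Hspa5-high cells were looked at after their values were seen. In basal cells the 8 with the largest falls among genes of at least 20 CPM were Ifit3 at -3.82, Ifi44 at -3.81, Ifit1 at -3.61, Ifi27l2a at -3.45, Usp18 at -3.44, Ifi47 at -3.35, Iigp1 at -3.30 and Oasl2 at -3.25 (log2, edgeR). These genes are known as targets of interferon. Ifit1 stood at 397, 825, 155 and 123 CPM in basal cells without Hspa5 and at 31.2, 52.7, 25.8 and 1.93 CPM in those with 3 or more Hspa5 UMIs, without overlap.

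In luminal progenitors the 8 were Fgg at -3.20, Fgb at -2.76, G0s2 at -2.64, AW112010 at -2.15, Wfdc17 at -2.06, Cited4 at -2.05, Ptn at -1.99 and Irf7 at -1.88. Fgg and Fgb encode chains of fibrinogen, and Irf7 is an interferon regulatory factor. Fgg stood at 54.1, 141, 13.1 and 92.2 CPM in progenitors without Hspa5 and at 3.60, 2.76, 1.89 and 19.3 CPM in those with it, so that the highest value with Hspa5 lay above the lowest without it.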
